A study of Mus musculus with 20 samples.

Results

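The genes described here are 42 nuclear genes for subunits of the oxidative phosphorylation complexes of mitochondria, picked by symbol from the 26211 genes of the deposited table. They comprise 12 genes of complex I, 4 of complex II, 5 of complex III, cytochrome c, 10 of complex IV and 10 of complex V. All 42 were in the table, and all passed the filter on low values, a mean normalized read count of at least 10 over the 20 libraries. The 13 subunits encoded in mitochondrial DNA were not analysed here.

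Oxidative phosphorylation is the last stage of cellular respiration. Complexes I to IV of the inner mitochondrial membrane pass electrons from NADH and succinate to oxygen, with ubiquinone and cytochrome c as carriers between them, and complex V, the ATP synthase, makes ATP from the resulting proton gradient. In pancreatic beta cells the ATP made in this way closes ATP-sensitive potassium channels when glucose is high, which is the step that couples glucose to insulin release.

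RNA was sequenced from pancreatic islets of P2Y14-knockout mice and of wild-type mice, with 10 libraries per genotype. The strain of every sample is given as C57BL/6 x 129S6. P2Y14 is a receptor on the cell surface that responds to UDP-sugars. Islets were released with Liberase, picked under a microscope and cultured overnight. The sources used here give neither the age and sex of the mice nor the construction of the knockout allele. They also do not state whether libraries were made from separate mice, so p-values measure the spread between these libraries. Knockout libraries are numbered 1 to 10 and wild-type libraries 11 to 20, as in the table.

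Reads over genes numbered 34520628 to 199847246 per library in knockout islets and 53766074 to 168991840 in wild-type islets. The targeted gene P2ry14 averaged 51.2 ± 31.4 normalized read counts in knockout islets and 151 ± 67.4 in wild-type islets (SD, n = 10 each), and its log2 fold change was -1.97 (SE 0.59, limma, adjusted p = 0.244). The groups overlapped, because knockout library 2 had 114 normalized read counts of P2ry14, above the lowest wild-type library at 79.7. Acinar cell markers, genes of the exocrine tissue that surrounds islets, took 8.19% to 33.3% of the reads in knockout libraries and 6.40% to 32.8% in wild-type libraries. The glucagon transcript Gcg of alpha cells and the insulin transcript Ins2 of beta cells were high in every library, at no less than 513752 and 14474216 normalized read counts in knockout libraries and 1164084 and 13377056 in wild-type libraries.

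Binding sites for the nuclear respiratory factor NRF1, for ETS-family factors (which include GABP) and for YY1 are known from promoters of respiratory chain genes. Promoters from 250 bases before to 50 bases after the transcription start were matched for 32 of the 42 genes in RefSeq (build GRCm38.p6; the deposited values were made on mm9). Each was searched on both strands for the letters GCGCA and GCGC with any 1 base between them (NRF1), CCGGAAG (ETS) and AANATGGCG (YY1). The NRF1 letters stood in 8 of the 32 promoters, or 25.0%, and in 4.78% of all 27025 promoters of the same length and 9.35% of the 11767 promoters of genes tested here. The ETS letters stood in 7, or 21.9%, against 9.12% of all promoters and 16.3% of those of tested genes. The YY1 letters stood in 2, or 6.25%, against 2.51% and 4.70%. A match is a description of the letters in this window and not a site in use, and 18 of the 32 promoters held none of the 3 strings.

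The 4 promoters below are shown because they hold the matches in different arrangements, with matches in capitals: 3 NRF1 strings in Sdha, 1 ETS string in Sdhb, both kinds in Cox6a1, where GCGCATGCGC reads the same on both strands and the ETS string is on the opposite strand, and 1 YY1 string on the opposite strand in Atp5b. Sdha (chr13:74350191-74350490, minus strand) and Sdhb (chr4:140961021-140961320, plus strand) encode the catalytic pair of complex II, whose values across libraries differ as described for complex II. Cox6a1 is at chr5:115348909-115349208 on the minus strand and Atp5b at chr10:128083057-128083356 on the plus strand.
Sdha: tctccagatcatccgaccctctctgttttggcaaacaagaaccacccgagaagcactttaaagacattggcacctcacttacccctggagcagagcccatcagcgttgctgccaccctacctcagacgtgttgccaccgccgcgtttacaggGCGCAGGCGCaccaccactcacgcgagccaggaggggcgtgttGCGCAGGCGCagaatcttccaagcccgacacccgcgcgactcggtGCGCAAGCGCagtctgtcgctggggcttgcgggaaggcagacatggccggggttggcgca
Sdhb: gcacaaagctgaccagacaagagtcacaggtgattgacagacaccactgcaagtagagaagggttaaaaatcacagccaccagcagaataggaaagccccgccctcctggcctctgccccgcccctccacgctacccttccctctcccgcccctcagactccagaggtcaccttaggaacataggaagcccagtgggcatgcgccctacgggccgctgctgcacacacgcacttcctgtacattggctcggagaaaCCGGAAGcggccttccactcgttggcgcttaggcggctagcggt
Cox6a1: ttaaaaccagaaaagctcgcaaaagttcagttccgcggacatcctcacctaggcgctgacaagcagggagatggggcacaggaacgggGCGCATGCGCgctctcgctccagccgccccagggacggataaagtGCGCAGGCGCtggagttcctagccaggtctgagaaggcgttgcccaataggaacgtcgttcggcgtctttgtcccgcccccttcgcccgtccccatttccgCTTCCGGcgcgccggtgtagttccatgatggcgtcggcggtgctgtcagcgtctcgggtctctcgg
Atp5b: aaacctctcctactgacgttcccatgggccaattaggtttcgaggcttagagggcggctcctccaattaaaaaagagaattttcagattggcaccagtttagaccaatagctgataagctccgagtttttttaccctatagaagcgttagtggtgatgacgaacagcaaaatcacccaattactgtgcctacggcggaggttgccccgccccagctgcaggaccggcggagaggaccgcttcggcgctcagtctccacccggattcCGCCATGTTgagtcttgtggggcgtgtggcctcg

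The transcripts of the chain were abundant, and their levels differed more between subunits than between genotypes. Levels were compared per kilobase of the shortest principal coding transcript. The highest was Ndufb8, an accessory subunit of complex I, at 15974 ± 6174 normalized read counts per kilobase in knockout islets and 13478 ± 4181 in wild-type islets (SD, n = 10 each). Atp5c1, Atp5a1, Atp5b, Atp5j and Atp5g3, all of complex V, came next, with means over the 20 libraries of 12889, 12723, 12614, 11885 and 11613 per kilobase. These 5 means lie closer together than the SD within either genotype, so their order is not resolved.

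By complex, the median level per kilobase over the 20 libraries was 8703 in complex V, 2963 in complex IV, 2310 in complex I, 1555 in complex II and 917 in complex III. Within complex V the levels spanned 7.80-fold and within complex II 4.18-fold, against 64.4-fold in complex I. The lowest genes of complexes I, III and V, which are Ndufs3, Uqcrb and Atp5h, have processed copies elsewhere in the genome, which are described last. The gene listed for cytochrome c, Cycs, was the lowest of all at 4.60 per kilobase.

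**Figure D1:**
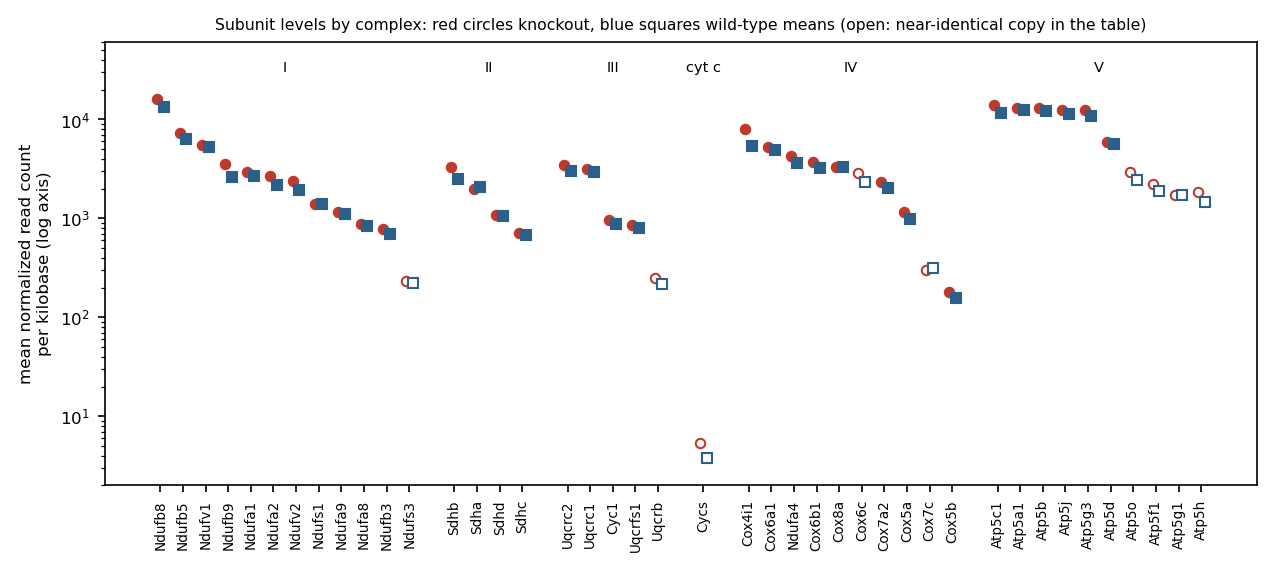
Mean normalized read count per kilobase (log axis) of each subunit gene, by complex, in knockout (red circles) and wild-type islets (blue squares), with n = 10 libraries each. Open symbols mark the 9 genes with a near-identical processed copy in the table. The genotypes lie close together for each gene, while genes of one complex differ up to 64.4-fold. The low end of that span is Ndufs3, an open symbol, whose level is uncertain because reads may be split with its copy.

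None of the 42 genes passed an adjusted p of 0.05 for knockout against wild-type islets (limma across all 17482 genes tested, Benjamini-Hochberg), in which 49 genes passed, or 0.28%. The smallest adjusted p among them was 0.566, for Cox6c. None had an unadjusted p under 0.05 either, against 4.31% of all tested genes on the higher side and 4.63% on the lower side. On the recovered whole reads, edgeR gave 0 calls and DESeq2 gave 0 calls at the adjusted threshold, beside 43 genes (0.246%) and 137 genes (0.784%) called overall. At an unadjusted p under 0.05 both gave 4 on the higher side, the same 4 genes, Ndufb9, Sdhb, Cox4i1 and Cox6c, and 0 on the lower side. Over all tested genes the shares were 4.68% higher and 4.14% lower with edgeR, and 5.23% higher and 4.57% lower with DESeq2. The knockout and wild-type values overlapped for all 42, and 0.0343% of tested genes had groups that did not overlap.

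The fold changes were small and nearly all positive. Of the 42 genes, 40 had a positive log2 fold change, knockout over wild-type, and the median over them was 0.16, beside 49.6% positive and a median of 0.00 over all tested genes. The median was 0.14 in complex I (12 of 12 positive), 0.07 in complex II (3 of 4), 0.16 in complex III (5 of 5), 0.21 in complex IV (9 of 10) and 0.17 in complex V (10 of 10). These genes shared their movement between libraries, as described further on, so 40 positive values are not 40 separate observations. All these fold changes are of normalized read counts, that is, after division by the size factor. As a share of all reads over genes, the 42 genes together took 0.143% to 0.243% in knockout libraries, with a median of 0.174%. In wild-type libraries they took 0.164% to 0.249%, with a median of 0.192%. The medians of this share lean the other way, so the direction depends on the scale. In bulk RNA, a different share of a cell type and a different amount of RNA per cell cannot be told apart.

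**Figure D2:**
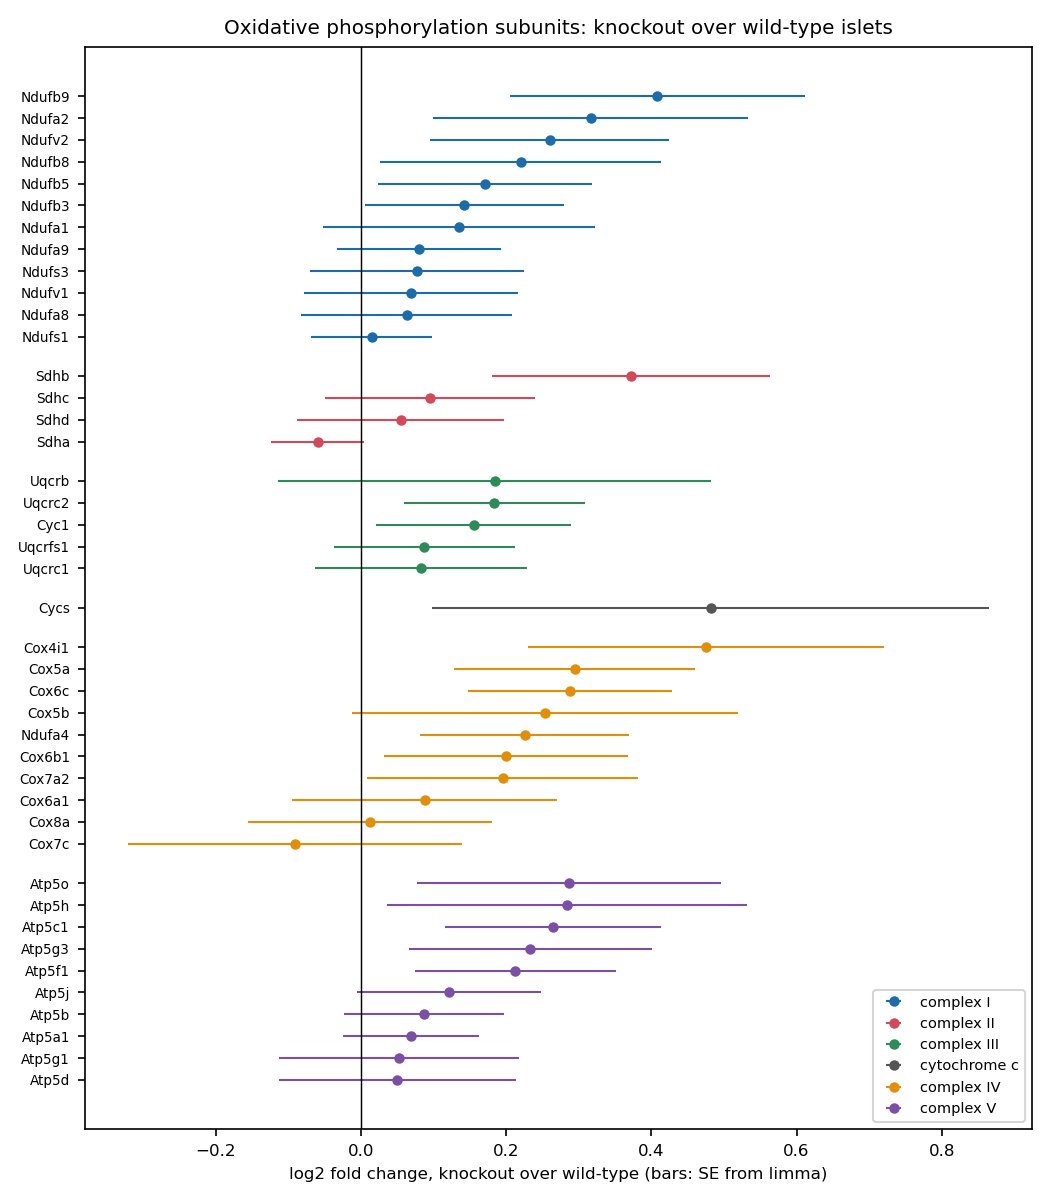
Log2 fold change of each subunit gene, knockout over wild-type islets, with its standard error from limma (n = 10 libraries each), grouped by complex. Values run from -0.09 for Cox7c to 0.48 for Cycs, 40 of 42 lie right of 0, and none passed the adjusted threshold.

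Complex I takes electrons from NADH. Ndufb9, an accessory subunit of its membrane arm, had 1072, 2518 and 4608 normalized read counts as the lowest, median and highest of the knockout libraries, and 1204, 1590 and 2712 in the wild-type libraries. In knockout islets 9 of 10 libraries lay above the wild-type median and 3 above the highest wild-type library, while the lowest of all 20 was also a knockout library, number 5. Its log2 fold change was 0.41 (SE 0.20, limma, adjusted p = 0.579).

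Ndufv2, a subunit of the NADH-binding module, had 1894, 3899 and 6019 normalized read counts in knockout libraries and 2248, 3578 and 4248 in wild-type libraries, again as lowest, median and highest. Here 4 knockout libraries exceeded every wild-type library, and the log2 fold change was 0.26 (SE 0.16, limma, adjusted p = 0.663). Ndufb8 had 6596, 9143 and 20551 in knockout libraries and 6768, 7526 and 14070 in wild-type libraries. Its log2 fold change was 0.22 (SE 0.19, limma, adjusted p = 0.767), and without knockout library 10, the highest, it was 0.11. The catalytic core subunit Ndufs1 gave 0.01 (SE 0.08) and the flavin-binding Ndufv1 0.07 (SE 0.15), both well inside the spread between libraries.

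Complex II, succinate dehydrogenase, belongs to both the citric acid cycle and the electron transport chain. Sdhb, its iron-sulfur subunit, had 1679, 3751 and 6238 normalized read counts as lowest, median and highest in knockout libraries and 1922, 2692 and 3897 in wild-type libraries. Of the 10 knockout libraries, 9 lay above the wild-type median and 5 above every wild-type library, while knockout library 5 lay below all 10 wild-type libraries. The log2 fold change was 0.37 (SE 0.19, limma, adjusted p = 0.587).

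Sdha, the flavoprotein that pairs with Sdhb to oxidise succinate, had 5328, 5710 and 6776 normalized read counts in knockout libraries and 5628, 5944 and 6953 in wild-type libraries. It was 1 of 2 genes among the 42 with a negative log2 fold change, at -0.06 (SE 0.06, limma, adjusted p = 0.814), and 3 of 10 knockout libraries lay above the wild-type median. Its values were also the most even of the 42. The SD of the log2 value within groups was 0.10 for Sdha and 0.45 for Sdhb. The membrane anchors Sdhc and Sdhd had log2 fold changes of 0.09 (SE 0.15) and 0.05 (SE 0.14).

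Complex III passes electrons from ubiquinol to cytochrome c. Uqcrc2, a core protein, had 4237, 6536 and 7856 normalized read counts as lowest, median and highest in knockout libraries and 4342, 5762 and 7033 in wild-type libraries. In 5 knockout libraries it exceeded every wild-type library, and its log2 fold change was 0.18 (SE 0.12, limma, adjusted p = 0.687). Cyc1, the cytochrome c1 subunit, had 1178, 1441 and 2165 in knockout libraries and 846, 1302 and 1810 in wild-type libraries. The lowest knockout library lay above 4 wild-type libraries, and the log2 fold change was 0.16 (SE 0.13, limma, adjusted p = 0.765).

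Cycs, the mobile carrier cytochrome c, had 5.14, 13.3 and 34.3 normalized read counts in knockout libraries and 4.67, 9.20 and 29.5 in wild-type libraries. The ranges nearly coincide, and the log2 fold change of 0.48 was the largest of the 42 with the largest error (SE 0.38, limma, adjusted p = 0.735). These normalized read counts were 31.5% of those of Cycs and its processed copies together, as described last. With the copies added the mean was still below that of every other gene of the 42.

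Complex IV, cytochrome c oxidase, reduces oxygen. Cox4i1, the regulatory subunit that binds ATP, had 2182, 5487 and 12516 normalized read counts as lowest, median and highest in knockout libraries and 2628, 3796 and 6449 in wild-type libraries. The range was wider in knockout islets at both ends, with library 5 below all wild-type libraries and 3 libraries above them. Its log2 fold change was 0.48, a linear fold of 1.39 (SE 0.25 on the log2 scale, limma, adjusted p = 0.587).

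Cox6c, a small membrane subunit, had 1005, 1380 and 2300 normalized read counts in knockout libraries and 904, 1137 and 1624 in wild-type libraries. In knockout islets 8 of 10 libraries lay above the wild-type median, and the lowest knockout library lay above 3 wild-type libraries. The log2 fold change was 0.29 (SE 0.14, limma, adjusted p = 0.566). Cox7c, another small subunit, had 67.7, 144 and 306 in knockout libraries and 88.5, 167 and 244 in wild-type libraries. Its log2 fold change was -0.09 (SE 0.23, limma, adjusted p = 0.931), and it turned to 0.13 when the reads of its processed copies were added. Ndufa4, named as a complex I gene and now placed in complex IV, gave 0.23 (SE 0.14).

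**Figure D3:**
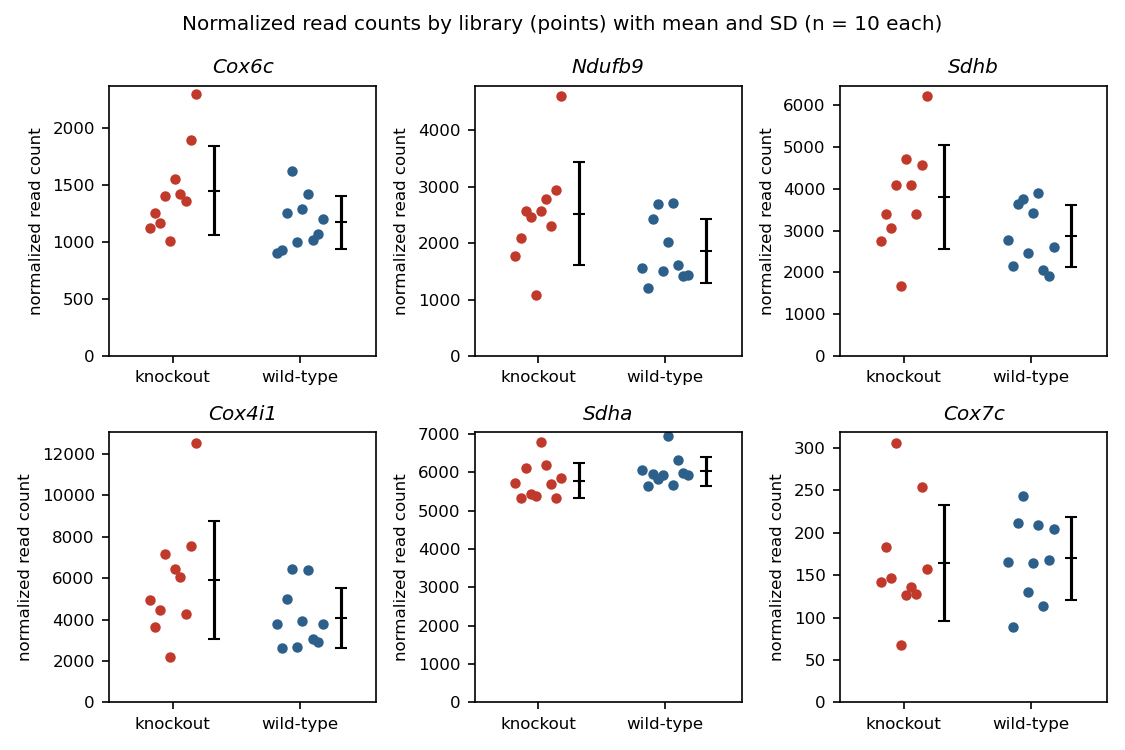
Normalized read counts of 6 subunit genes in each library (points, in library order within a group), knockout on the left and wild-type on the right, with the mean and SD beside them (n = 10 each). The groups overlap in every panel. Sdha varies little, and 1 knockout library stands above the others in Cox4i1 (12516) and Ndufb9 (4608).

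Complex V is a rotary enzyme with a catalytic head, a central stalk, a side stalk and a membrane ring. Atp5c1, the gamma subunit of the central stalk, had 8087, 14482 and 20830 normalized read counts as lowest, median and highest in knockout libraries and 7934, 12381 and 16034 in wild-type libraries. In 4 knockout libraries it exceeded every wild-type library, and the log2 fold change was 0.26 (SE 0.15, limma, adjusted p = 0.625). Atp5f1, a subunit of the side stalk, had 2357, 3672 and 4838 in knockout libraries and 1859, 2921 and 3928 in wild-type libraries. Its log2 fold change was 0.21 (SE 0.14, limma, adjusted p = 0.678). The alpha and beta subunits of the catalytic head were the steadiest of the complex. Atp5a1 and Atp5b had log2 fold changes of 0.07 (SE 0.09) and 0.09 (SE 0.11).

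The 29 of the 42 genes without values by library here, which include those given above by fold change alone, had log2 fold changes of 0.01 to 0.32, with adjusted p of 0.626 to 0.992 (limma). Their mean levels ran from 168 per kilobase for Cox5b to 12723 for Atp5a1.

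The subunit genes moved together from library to library, and this movement was larger than the difference between genotypes. For each gene, the log2 value in a library was set against the gene's mean over the 20 libraries. The median of the 42 deviations ran from -0.53 in library 5 to 0.64 in library 10 among knockout libraries, and from -0.37 in library 11 to 0.37 in library 14 among wild-type libraries. Knockout library 10 held the highest value of the 20 for 27 of the 42 genes, beside 15.9% of all tested genes. Knockout library 5 held the lowest for 22, beside 9.64% of all tested genes, and wild-type library 11 the lowest for 10, beside 4.78%. The summed normalized read count of the 42 genes was 125120, 190731 and 267105 as lowest, median and highest in knockout libraries and 139758, 160511 and 215080 in wild-type libraries, so the groups overlapped.

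In knockout library 5 every complex was low, with median deviations of -0.57 in complex I, -0.46 in complex II, -0.52 in complex III, -0.58 in complex IV and -0.55 in complex V. Cycs stood apart there at 1.34. In knockout library 10 the medians were 0.64, 0.36, 0.67, 0.73 and 0.56 for the same 5 complexes, and Cycs was at -0.10. These deviations are of normalized read counts. As a share of all reads the order of these 2 libraries was reversed, with 0.236% for the 42 genes in library 5 and 0.172% in library 10. Without knockout library 10 the median log2 fold change of the 42 genes was 0.09 with 36 positive. Without knockout library 2, which had the highest P2ry14 value of its group, it was 0.18 with 40 positive, and without knockout library 5 it was 0.23 with 41 positive and 9 at an unadjusted p under 0.05.

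Transcript length moved with this pattern. Of the 42 genes, 23 (54.8%) had a transcript shorter than 1000 bases, beside 9.85% of the other tested coding genes. In each library the median deviation of the 3333 other coding genes of 4000 bases or more was subtracted from that of the 1418 other coding genes under 1000 bases. This difference ran from -0.63 in library 5 to 0.88 in library 10 among knockout libraries and from -0.42 in library 18 to 0.52 in library 14 among wild-type libraries. It had the same sign as the median deviation of the subunit genes in 19 of 20 libraries, the exception being wild-type library 16.

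**Figure D4:**
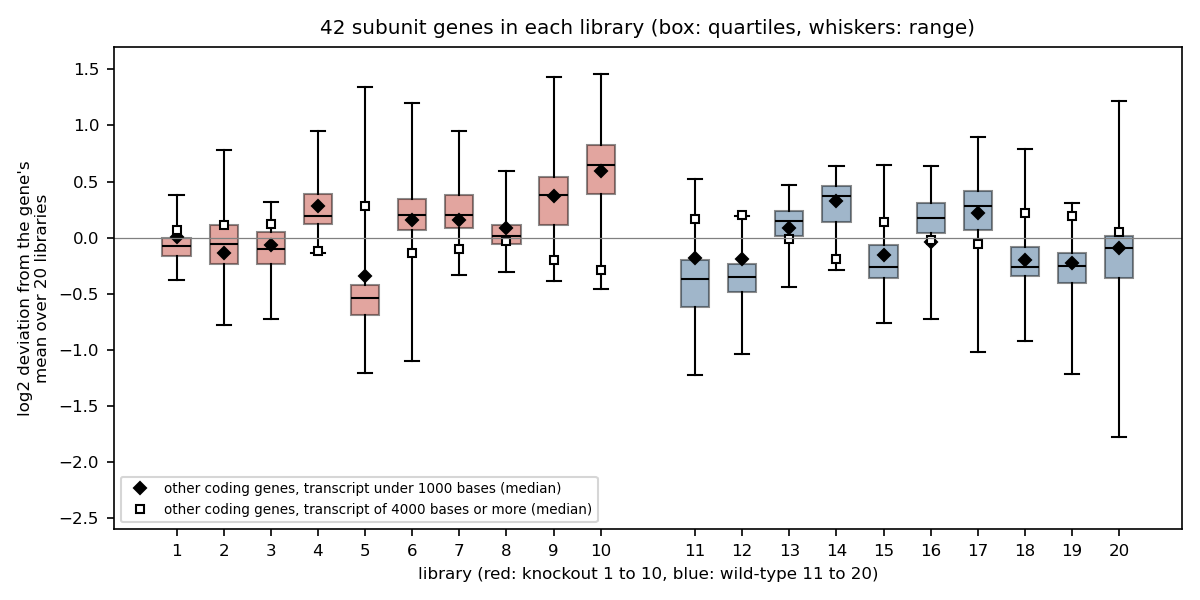
Log2 deviation of the 42 subunit genes from their own means in each library (boxes show quartiles, whiskers the range), knockout on the left and wild-type on the right. Filled diamonds and open squares give the median deviations of other coding genes with short and long transcripts. Knockout library 10 is highest (0.64) and knockout library 5 lowest (-0.53), and short genes (diamonds) lie on the side of the boxes in most libraries.

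The other coding genes under 1000 bases had a median log2 fold change of 0.15, knockout over wild-type, with 70.7% positive, and those of 4000 bases or more had -0.10 with 30.8% positive. The 23 short subunit genes had a median of 0.20 with 22 positive. The 14 subunit genes of 1000 to 2000 bases had 0.12 with all 14 positive, beside 0.06 and 60.1% in other coding genes of that length. When the trend of each library with transcript length was removed, an alternative added after the data were seen, the median of the 42 genes was 0.07 with 32 positive. The part of length, RNA quality or library preparation in the fold changes was not tested.

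Length also went with how evenly a subunit gene was measured. Over the 42 genes, Spearman's rho between transcript length and the SD of the log2 value within groups was -0.52, a description across genes that share the same libraries. The long genes Sdha, Ndufs1 and Atp5a1 had SDs of 0.10, 0.17 and 0.18, the lowest of the 42. Other coding genes showed a like order, with a median SD of 0.57 under 700 bases and 0.38 at 2000 to 4000 bases. Length was not the only measure that went with the SD, since rho between the mean value and the SD was -0.33 over the same 42 genes. Sdhc, the longest transcript at 3171 bases, had an SD of 0.33, and Cycs, a long transcript with few reads, had 0.80.

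**Figure D5:**
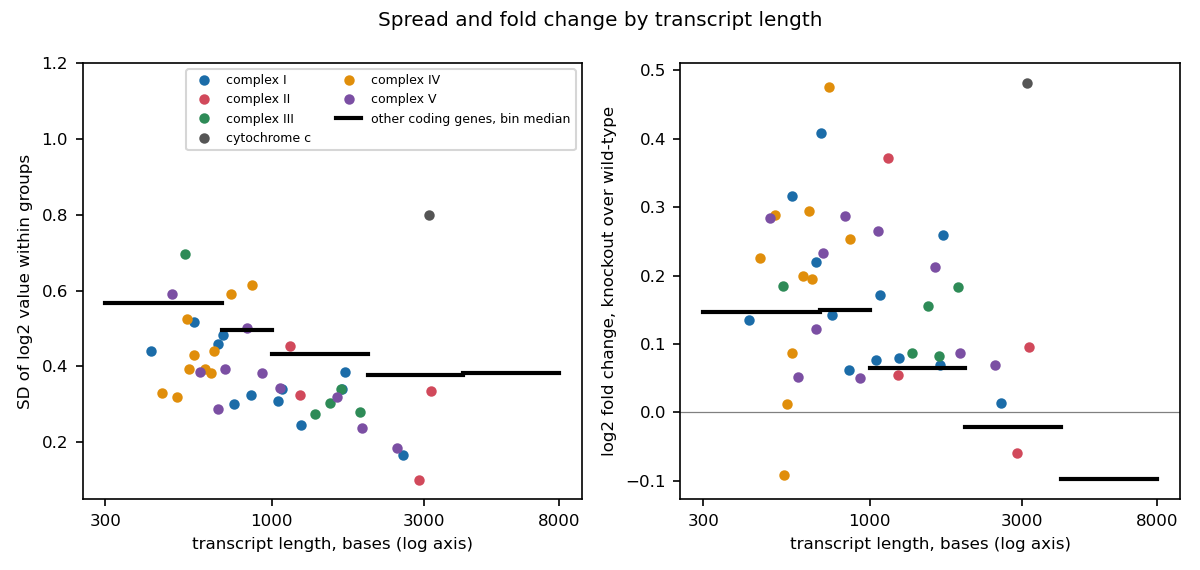
SD of the log2 value within groups (left) and log2 fold change, knockout over wild-type (right), of each subunit gene against transcript length in bases (log axis), coloured by complex. Black bars are medians of the other coding genes in 5 length bins. The lowest SD is that of the long gene Sdha (SD 0.10, log2 fold change -0.06), while Cycs lies far above the other long genes (0.80), and the bars fall with length in the right panel, from 0.15 to -0.10.

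Exocrine RNA differed several-fold between islet preparations, so each gene was also fitted with the acinar share of reads beside genotype. The slope on acinar share was positive for 39 of the 42 genes, beside 46.6% of all tested genes. This sign belongs to normalized read counts. As a share of all reads, the 42 genes took 0.236% and 0.249% in knockout library 5 and wild-type library 12, lowest in acinar share within their groups. In knockout library 10 and wild-type library 13, the highest in acinar share, they took 0.172% and 0.164%. The slope passed an adjusted p of 0.05 for 8 genes (limma), all positive, beside 4.93% of tested genes with a positive and 1.42% with a negative called slope. These were Ndufa9 and Ndufb9 of complex I, Sdhb, Uqcrc1 of complex III, Cox5a of complex IV, and Atp5b, Atp5c1 and Atp5o of complex V. Ndufb9 had a slope of 0.39 log2 units per 10 percentage points of acinar reads (SE 0.09, adjusted p = 0.008), and Sdha had 0.04 (SE 0.04, adjusted p = 0.577). Cycs had the steepest slope below 0, at -0.47 (SE 0.21, adjusted p = 0.182).

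The number of genes with a called slope rested on a few libraries. It was 3 without knockout library 5, which had 8.19% acinar reads, 5 without knockout library 10 (33.3%), 5 without wild-type library 12 (6.40%) and 14 without knockout library 9. With acinar share in the fit, the median log2 fold change of the 42 genes was 0.14 with 40 positive. In that fit 6 genes had an unadjusted p under 0.05, the 4 that edgeR gave together with Cox5a and Atp5c1, all with positive fold changes, beside 4.99% of tested genes on the higher side and 4.84% on the lower side, and none passed the adjusted threshold. Knockout library 5 was also the shallowest and knockout library 10 held the highest mean of the macrophage markers, so the part of acinar RNA in the pattern was not tested apart from these.

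Macrophage marker genes had a median log2 fold change of 0.33, with 13 of 18 positive and 0 called. At an unadjusted p under 0.05 (limma), 3 of the 18 were higher and 0 lower, beside 4.31% of all tested genes on the higher side. Their summed normalized read count was 2351, 4373 and 8045 as lowest, median and highest in knockout libraries and 2203, 3568 and 7630 in wild-type libraries, and 4 of the 18 were at 0 in some library. With their mean log2 level in the fit, the median of the 42 subunit genes was 0.09 with 35 positive. Of the endocrine lists, 5 of 6 alpha cell markers had a negative log2 fold change with a median of -0.57, and 7 of 11 beta cell markers had one with a median of -0.19. All 5 delta and PP cell markers had a negative log2 fold change, with a median of -0.54 and a smallest adjusted p of 0.167 (limma). At an unadjusted p under 0.05 (limma), 5 of the 6 alpha, 3 of the 11 beta and 2 of the 5 delta and PP markers were lower. Over all tested genes the share was 4.63% on the lower side. The summed beta cell markers went the other way, with a median of 28651268 normalized read counts in knockout libraries and 23331431 in wild-type libraries. This sum is weighted towards the most abundant markers, such as Ins2, and does not describe the list as a whole. None of these endocrine markers passed the adjusted threshold, and their part in the subunit values was not tested.

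Of another 38 nuclear genes of the chain, outside the 42, 35 had a positive log2 fold change, the median was 0.28, and 1 was called. They are mainly genes for subunits, but include the ATP synthase inhibitor Atpif1 and the assembly factor Cox7a2l. Over all tested genes 49.6% were positive and 0.28% were called. Most of the 38 have transcripts under 1000 bases, and the other coding genes of that length were 70.7% positive with a median of 0.15. Ndufc2, an accessory subunit of complex I, had 969, 1279 and 1875 normalized read counts as lowest, median and highest in knockout libraries and 613, 835 and 1104 in wild-type libraries. It was higher in knockout islets with a log2 fold change of 0.65 (SE 0.14, limma, adjusted p = 0.036), a linear fold of 1.57, and the groups still overlapped. Ndufc2 lies on chromosome 7. The mice are of mixed strain, and a difference of strain at this locus could not be told apart from an effect of the knockout.

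The size of the Ndufc2 difference varied little, while its adjusted p lay near the threshold. It passed with edgeR (adjusted p = 0.034) and DESeq2 (adjusted p = 0.001) and after removal of the length trend (0.53, limma, adjusted p = 0.037). On leaving out 1 library at a time its log2 fold change stayed between 0.60 and 0.70 and its adjusted p between 0.025 and 0.083. The call was kept in 7 of these 20 fits, those without knockout library 2, 3, 5 or 6 or wild-type library 14, 15 or 20, and lost in the other 13. Ndufb6, a membrane arm subunit of complex I, gave 0.45 (SE 0.18, limma, adjusted p = 0.475) and Atp5e, the epsilon subunit of ATP synthase, 0.63 (SE 0.29, limma, adjusted p = 0.536).

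Some subunits have isoforms that are restricted to certain tissues, and 9 of these were in the table. Cox6a2, known as the heart and skeletal muscle isoform of the Cox6a subunit, was the highest of them. It had 264, 880 and 1591 normalized read counts as lowest, median and highest in knockout libraries and 563, 1249 and 1854 in wild-type libraries. Only 1 knockout library lay above the wild-type median, and the log2 fold change was -0.51 (SE 0.25, limma, adjusted p = 0.571). Its lowest value was in knockout library 10, where the ubiquitous form Cox6a1 had its highest, 5012.

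Cox4i2, Ndufa4l2 and Cox7a1 had medians of 107, 122 and 7.89 normalized read counts in knockout libraries and 65.0, 90.3 and 8.92 in wild-type libraries. The log2 fold change was 0.40 for Cox4i2 and -0.13 for Ndufa4l2, with adjusted p of 0.813 and 0.932 (limma). Cox7a1 was at 0 in 4 of 20 libraries, and its adjusted p was 0.747 (limma). Cox6b2, Cox7b2, Cox8b, Cox8c and the testis cytochrome c gene Cyct were below the filter and were not tested.

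Other genes of mitochondrial respiration gave no calls, beside 0.28% of all tested genes called. Of 45 assembly factors 35 had a positive log2 fold change, with a median of 0.11, beside 49.6% positive over all tested genes. At an unadjusted p under 0.05 (limma), 5 assembly factors were higher and 1 was lower. Over all tested genes the shares were 4.31% higher and 4.63% lower. The complex I assembly factors Tmem126b, Ndufaf5 and Foxred1 had the smallest p, with 0.45, 0.57 and 0.38 (SE 0.14, 0.19 and 0.13), and adjusted p of 0.315, 0.319 and 0.376 (limma). Tmem126b lay above the wild-type median in 10 of 10 knockout libraries and above every wild-type library in 6. Like Ndufc2 it lies on chromosome 7, and a difference of strain there could not be told apart from an effect of the knockout. Ndufaf5 lay above the wild-type median in 10 of 10 knockout libraries, and 8 of 10 wild-type libraries lay below the lowest knockout library, while the highest wild-type library reached 592.

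The 15 regulators of mitochondrial biogenesis had a median of 0.00 with 7 positive. Pprc1 and Ppargc1b, coactivators of nuclear respiratory factors, gave -0.35 (SE 0.17) and -0.90 (SE 0.68), and Tfb1m, a mitochondrial ribosomal RNA methyltransferase, gave 0.27 (SE 0.16), with adjusted p of 0.559, 0.716 and 0.649 (limma). Ppargc1b lies among the low genes, with a median of 51.0 normalized read counts in knockout libraries and 71.5 in wild-type libraries.

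Pyruvate dehydrogenase and the citric acid cycle, which feed the chain, had a median of 0.04 over 18 genes with 12 positive. Pdhb of pyruvate dehydrogenase, Suclg2 of succinyl-CoA ligase and Dld, the shared lipoamide dehydrogenase, gave 0.29 (SE 0.13), 0.34 (SE 0.17) and 0.15 (SE 0.08), with adjusted p of 0.528, 0.581 and 0.592 (limma).

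Of 12 mitochondrial carriers and shuttle genes 8 were positive with a median of 0.02. Gpd2, the mitochondrial glycerol-3-phosphate dehydrogenase, had 1748, 2331 and 2827 normalized read counts as lowest, median and highest in knockout libraries and 1834, 3429 and 5065 in wild-type libraries. Its log2 fold change was -0.49 (SE 0.18, limma, adjusted p = 0.408). Mpc2 of the pyruvate carrier gave 0.34 (SE 0.16) and the aspartate-glutamate carrier Slc25a12 gave -0.14 (SE 0.07), with adjusted p of 0.554 and 0.582 (limma). For both Gpd2 and Slc25a12, 0 of 10 knockout libraries lay above the wild-type median. Their transcripts are long, at 5620 and 6351 bases. With the length trend removed their log2 fold changes were -0.40 and -0.04, with adjusted p of 0.482 and 0.943 (limma).

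Several subunit genes have processed copies whose sequence nearly equals their own, and reads from such pairs can be split between them. A search of annotated pseudogene transcripts with blastn, at 95% identity or more over 50% or more of the coding sequence, found copies for 10 of the 42 genes, and 9 had a copy in the table. For 5 genes the copies together held more reads than the gene. The mean normalized read count over 20 libraries was 698 in the copy and 239 in the gene for Ndufs3, and 677 in the copies and 167 in the gene for Cox7c. It was 1288 and 803 for Atp5h, 251 and 125 for Uqcrb, and 31.2 and 14.4 for Cycs, with the copies first.

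Whether those reads came from the gene or from its copies cannot be told from the table, so the levels of these 5 genes are uncertain. The same limit holds to a lesser degree for Atp5g1, Atp5f1, Atp5o and Cox6c. Of the normalized read counts of gene and copy together, these genes held 56.5%, 77.8%, 80.4% and 90.4%. With the copies added, an alternative chosen after the data were seen, Cycs averaged 52.8 ± 14.9 normalized read counts in knockout islets and 38.3 ± 22.0 in wild-type islets (SD, n = 10 each), with a log2 fold change of 0.56 (SE 0.26, limma, adjusted p = 0.545). The highest copy of Cox7c, Gm12338, had a log2 fold change of 0.19, while Cox7c itself had -0.09. The median over the 42 genes was 0.15 with copies added, and 41 were positive.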

How the data were processed

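The deposited table gives for each gene and library a signal value, made by the authors as a read count over a library size factor from DESeq, per the file name and header. The submitters' processing notes list build mm9 and the tools FastQC, Bowtie 0.9.9, TopHat 1.3.3, Cufflinks 1.3.0 and DESeq 1.16.0. The sources used here do not give the read counter, the strand setting or the handling of reads with several matches, and the TruSeq v2 kit does not mark strand. Dividing by each column's step returned whole reads for 100% of non-zero values within 0.05 reads.

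Names and transcript lengths came from GENCODE M21 (GRCm38), which named 23950 of 26211 genes. Wild-type columns are numbered 11 to 20 and the labels 1 to 10, so these libraries carry no replicate number.

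Values were transformed as log2(value + 1), with a pseudocount of 1, and tested with limma 3.58.1 (R 4.3.3, trended eBayes, genotype as the only term, Benjamini-Hochberg adjustment) where a gene's mean was at least 10. The pseudocount understates changes of low genes. edgeR 4.0.16 and DESeq2 1.42.0 were run on recovered reads and called 43 and 137 genes. Copies were searched with blastn 2.17.0. The limma fit was tested beforehand on simulated data with known changes. The 42 genes and the lists were chosen with earlier results of these data known.

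Values by group are given for the 2 genes of smallest p and the highest per kilobase in each complex, Cycs and genes with a negative fold change. Up to 3 genes of smallest p in each other pathway list and every tissue-restricted isoform are named, some without values by group. Other genes named were chosen after their values were seen. Alternatives are listed with their effects in the closing section.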

Additional observations from a re-analysis of the deposited data

Results flagged for a closer look

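Within each genotype, the highest or lowest of 10 libraries was compared with its nearest neighbour by Dixon's ratio, for the 42 subunit genes and 18 further named genes. Of 120 groups 9 held a library beyond the 95% critical value. The rate of 1 in 20 by chance holds for separate groups of normally distributed values. These genes moved together between libraries, so the count is not compared with that rate. Knockout library 10 accounted for 7 of the 9. It had 2943 normalized read counts of Ndufa2, with 1950 in the next highest knockout library. For Ndufb9 it had 4608 against 2940 in the next, for Cyc1 2165 against 1560, and for Cox4i1 12516 against 7566. For Atp5d it had 9386 against 6577, for Atp5o 4322 against 2776, and for the further subunit Ndufb6 2124 against 1483. This library also had the highest acinar share, 33.3%, and the largest excess of short over long transcripts, 0.88 on the log2 scale. Of the wild-type libraries, library 16 had 6953 normalized read counts of Sdha with 6311 in the next, and library 17 had 69.8 of Cox7a1 with 33.4 in the next.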

How the results depend on the processing

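No subunit gene of the 42 passed the adjusted threshold in any of the 32 alternatives, and the smallest adjusted p was 0.225, without knockout library 5. Genes called over the whole table were 29 with a mean of at least 100, 137 with DESeq2, and 27 to 73 on leaving out 1 library (27 without knockout library 4, 32 without knockout library 8, 30 without wild-type library 19). Subunit genes at an unadjusted p under 0.05 were 0 in the main setting, 1 with TMM factors (Cox6c), 4 with edgeR, 4 with DESeq2, 6 with the acinar covariate, 1 with copies added (Cycs), and 0 to 9 on leaving out 1 library. The median log2 fold change was 0.09 to 0.23 on leaving out 1 library, 0.07 with the length trend removed and 0.09 with the macrophage covariate, and the other alternatives gave 0.14 to 0.17. Genes with a called acinar slope were 3 to 14 on leaving out 1 library. The number of the 42 genes with a positive fold change ranged over the alternatives from 32, with the length trend removed, to 41. Of the 31 genes that the naming rule took, only Cox7c changed sign, to 0.13 with copies added, and it spanned -0.20 to 0.038 (without knockout library 5) on leaving out 1 library; the cause was not tested. The other 367 of 368 values kept direction and side of the threshold in settings that kept all libraries.

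No paired analysis was possible because the wild-type columns carry the numbers 11 to 20 and not those of the labels. The labels themselves give a genotype and a number only, and do not state that equal numbers mark matched samples. Depth sets counting error for low genes such as Cycs, at 4.67 to 34.3 normalized read counts, and these few reads limit what can be detected there.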
